A study of Mus musculus with 12 samples.

Results

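The genes described here are 8 liver-secreted factors, Fgf21, Gdf15, Angptl4, Angptl6, Angptl8, Fetub, Ahsg and Lect2, chosen by name from 54532 genes counted in every library. They were measured by RNA sequencing of liver from male PPARγ flox/flox mice that received a single injection of an AAV8 vector at 8 weeks of age. Control littermates (wild-type, WT) received a vector for eGFP, and the other mice (PPARγ-KO) received a vector for Cre recombinase. Both vectors used the TBG promoter, which is active in hepatocytes, so other liver cells of both groups kept intact floxed alleles, and the controls carried the floxed alleles and a virus as well. All mice were then fed a fast-food diet (FFD), a diet high in saturated fat, cholesterol and sucrose with fructose and glucose in the drinking water, for 2 or 5 months. There was no group on a normal diet, so each comparison is between genotypes on FFD or between times on FFD. Each of the 4 groups had 3 libraries, 12 in all, with 16367775 to 27452284 counts per library (median 18360932.5).

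Hepatokines are proteins that the liver releases into the blood to act on other organs. FGF21 and GDF15 are stress-induced hormones: FGF21 signals through FGF receptors with the cofactor β-Klotho, and GDF15 through the receptor GFRAL in the hindbrain. ANGPTL4 and ANGPTL8 control the clearance of triglyceride from blood by acting on lipoprotein lipase (LPL), while ANGPTL6 is a relative linked to energy expenditure. Fetuin-A (Ahsg) and fetuin-B (Fetub) are plasma glycoproteins of the cystatin family that have been linked to insulin resistance, and LECT2 is a chemotactic hepatokine that rises with overnutrition. Fgf21 and Angptl4 are textbook targets of PPAR receptors, and PPARγ is the receptor deleted in the KO design.

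The whole-gene count of the targeted gene could not serve as a check of the KO labels. Pparg was at 38.8, 41.4 and 37.7 normalized CPM (counts scaled to TMM-adjusted library size) in WT at 2 months, while the values under the KO label were 50.5, 66.5 and 52.1. At 5 months WT libraries held 36.9, 41.4 and 37.1 CPM, and those labelled PPARγ-KO held 86.6, 93.0 and 75.1. Pparg was therefore higher under the KO label at both times, by 0.52 ± 0.107 on the log2 scale (SE; adjusted p = 0.0309, edgeR) at 2 months and 1.15 ± 0.0841 (adjusted p = 2.57e-06) at 5 months. The call at 2 months was lost under 6 of 13 alternatives, library size alone (adjusted p = 0.0729) and the omission of any 1 library other than WT replicate 1 among them, with adjusted p up to 0.117. The counts are summed over the whole gene, not over the exons between the loxP sites, so they do not show whether the deleted part was transcribed. PPARγ protein, which the study measured by Western blot, was not analysed here. All directions below follow the labels.

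Some values of the whole series touch the results that follow. No library duplicated another of its group. Chi-square per gene between replicates, near 1 where counting alone sets them apart, ran from 2.57 to 35.9. Libraries of different groups were not compared in this way. The closest pair was WT replicates 2 and 3 at 5 months, at 2.57, and both enter every comparison with that group. The next closest, KO replicates 2 and 3 at 5 months, had 10.4. WT replicate 1 at 2 months stood apart most, with 35.9 and 31.1 against replicates 2 and 3. The summed level of 8 hepatocyte markers, Alb and Apoa1 among them, was 56599 to 70186 CPM in WT and 73116 to 86600 CPM under the KO label at 2 months, and 54209 to 58049 against 72240 to 83766 at 5 months, so it was higher under the KO label without overlap at both times. Most of that sum was Alb, at a mean of 44956 against 57787 CPM and then 36978 against 57105, while Apoa1 (7261 against 7139) and Cyp2e1 (4489 against 3900) were not called at 5 months. Of these 8 markers, 0 were called at 2 months by edgeR, although 5 had an unadjusted p under 0.05 and DESeq2 called 3, and 3, Alb, Tat and Hnf4a, were higher at 5 months (1 to 5 over 13 alternatives). Tat lost its call without WT replicate 2 (adjusted p = 0.0584) or 3 (0.0536) and with all 12 libraries in one fit (0.241), and Hnf4a without WT replicate 2 (0.0930) or 3 (0.0748) or KO replicate 3 (0.0708). The 8 macrophage markers summed to 265 to 326 CPM in WT and 312 to 356 under the KO label at 2 months, and to 554 to 623 and 274 to 384 at 5 months, where 6 of 8 were lower. The 8 stellate cell markers summed to 571 to 723 CPM in WT and 430 to 446 under the KO label at 2 months and to 627 to 776 and 490 to 557 at 5 months. For the 7 endothelial markers the ranges were 313 to 386 and 334 to 359, then 273 to 280 and 236 to 255. For the 5 cholangiocyte markers they were 100 to 181 and 67.5 to 87.9, then 137 to 280 and 209 to 249, and for the 6 adipocyte markers 21.6 to 42.5 and 9.58 to 10.9, then 34.6 to 38.5 and 23.9 to 32.4. Cfd and Fabp4 made up nearly all of the last sum. Cfd had a mean of 13.8 CPM in WT at 2 months and 6.66 at 5 months and no counts under the KO label, and Fabp4 had 178 to 687 counts. The other 4 of these markers, Adipoq, Lep, Retn and Plin1, had at most 2 counts in any library. Of 7 pancreatic acinar markers, Cela1 had 128 to 329 counts and no other had more than 5. Cela1 was at 8.19 CPM in WT and 13.2 under the KO label at 2 months (not called, adjusted p = 0.160) and at 13.7 and 9.37 at 5 months (lower, adjusted p = 0.0323, a call lost under 4 of 13 alternatives). Neutrophil markers summed to at most 6.63 CPM and lymphocyte markers to at most 11.3 CPM in any library. In bulk liver, fewer cells of a type and less RNA per cell cannot be told apart, and the part of cell makeup in the differences below was not tested.

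Stretches of DNA at the start of these genes are shown first, because binding motifs of the factors that act on them are the sequence side of the comparison. RefSeq (GRCm38.p6, the build mm10) gave windows from 250 bases before to 50 after the start for 7 of the 8 genes, 9 windows in all, and Angptl4 had none. Motifs of 4 kinds were searched on both strands: DR1 (a pair of AGGTCA sites with 1 base between them and up to 2 mismatches, the type bound by PPAR-RXR and HNF4), TGATGNAA (the type bound by ATF4), CACGTG (the E-box type bound by ChREBP and USF) and TTATGCAA (a C/EBP type). Matches are in capitals below. The fetuin windows are shown because these genes are neighbours, and a second Fetub window is not printed. The counted Ahsg gene begins at 22891277 on chromosome 16, so the Ahsg window, set by the RefSeq start, lies within it.
Fgf21, chr7:45615441-45615740, minus strand: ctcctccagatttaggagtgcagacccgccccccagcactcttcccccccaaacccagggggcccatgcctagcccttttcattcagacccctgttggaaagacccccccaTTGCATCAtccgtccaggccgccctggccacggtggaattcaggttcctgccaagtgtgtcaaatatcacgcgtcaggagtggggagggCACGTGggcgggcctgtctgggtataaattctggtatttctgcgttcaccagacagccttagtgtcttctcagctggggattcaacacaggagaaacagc
Gdf15, chr8:70632407-70632706, minus strand: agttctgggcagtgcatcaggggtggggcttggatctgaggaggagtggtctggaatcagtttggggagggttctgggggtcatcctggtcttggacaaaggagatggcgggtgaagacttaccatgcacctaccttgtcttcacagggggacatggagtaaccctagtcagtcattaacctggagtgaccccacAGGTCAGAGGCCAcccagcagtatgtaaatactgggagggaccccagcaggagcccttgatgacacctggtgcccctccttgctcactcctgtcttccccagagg
Angptl8, chr9:21835260-21835559, plus strand: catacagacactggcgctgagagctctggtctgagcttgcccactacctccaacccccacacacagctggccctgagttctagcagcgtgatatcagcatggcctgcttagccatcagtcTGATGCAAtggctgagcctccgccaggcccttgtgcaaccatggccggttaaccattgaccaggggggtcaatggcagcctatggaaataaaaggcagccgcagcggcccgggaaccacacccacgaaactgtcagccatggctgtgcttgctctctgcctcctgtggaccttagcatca
Ahsg, chr16:22891765-22892064, plus strand: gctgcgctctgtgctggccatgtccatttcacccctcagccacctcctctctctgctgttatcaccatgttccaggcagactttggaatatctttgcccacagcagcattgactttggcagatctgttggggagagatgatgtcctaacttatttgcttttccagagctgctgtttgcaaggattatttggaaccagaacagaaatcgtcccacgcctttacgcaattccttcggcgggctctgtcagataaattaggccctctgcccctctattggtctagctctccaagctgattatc
Fetub, chr16:22918132-22918431, plus strand: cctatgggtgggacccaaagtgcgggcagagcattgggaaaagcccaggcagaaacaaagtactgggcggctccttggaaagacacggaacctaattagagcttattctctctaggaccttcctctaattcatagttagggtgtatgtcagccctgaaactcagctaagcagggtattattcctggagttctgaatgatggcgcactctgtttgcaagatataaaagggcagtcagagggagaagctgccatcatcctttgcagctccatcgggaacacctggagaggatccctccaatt

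The Fgf21 window holds a TGATGNAA match on the minus strand of the window at -139 from the start and a CACGTG at -50. The Gdf15 window holds a DR1 match with 1 mismatch at -55, and a second Gdf15 window, not printed, holds a CACGTG at -83. In the Angptl8 window, TGATGNAA was matched at -130. None of the 4 motifs was matched in the windows of Angptl6, Lect2, Ahsg and Fetub, and none of TTATGCAA in any of the 9. Among all 32851 RefSeq promoters of this length, 3.86% hold DR1, 3.97% TGATGNAA, 7.15% CACGTG and 0.74% TTATGCAA. A match describes the letters in this window and is not evidence that a factor binds.

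Per length of gene, Ahsg was the most abundant of the 8 in every group and the order of the rest fell into steps. Mean levels of Ahsg were 1171 ± 177 (SD, n = 3) CPM per kb in WT and 1771 ± 93.2 under the KO label at 2 months, and 1798 ± 59.6 and 1994 ± 23.0 at 5 months. The next gene, Lect2, was lower by 9.56 to 12.4 times in the 4 groups. Lect2 (123 to 172 CPM per kb in the group means) and Fetub (109 to 143) took the next places in every group, and their libraries overlapped in 3 of the 4 groups, all but WT at 5 months. Angptl8 (25.5 to 43.7) and Angptl4 (25.0 to 43.2) followed and overlapped in every group, Angptl8 leading at 2 months and Angptl4 at 5 months. The lowest 3 were Gdf15 (6.70 to 15.8), Angptl6 (7.91 to 9.70) and Fgf21 (6.72 to 11.2), and Fgf21 and Angptl6 overlapped in every group. Without division by length, Fetub came before Lect2 in all 4 groups.

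**Figure D1:**
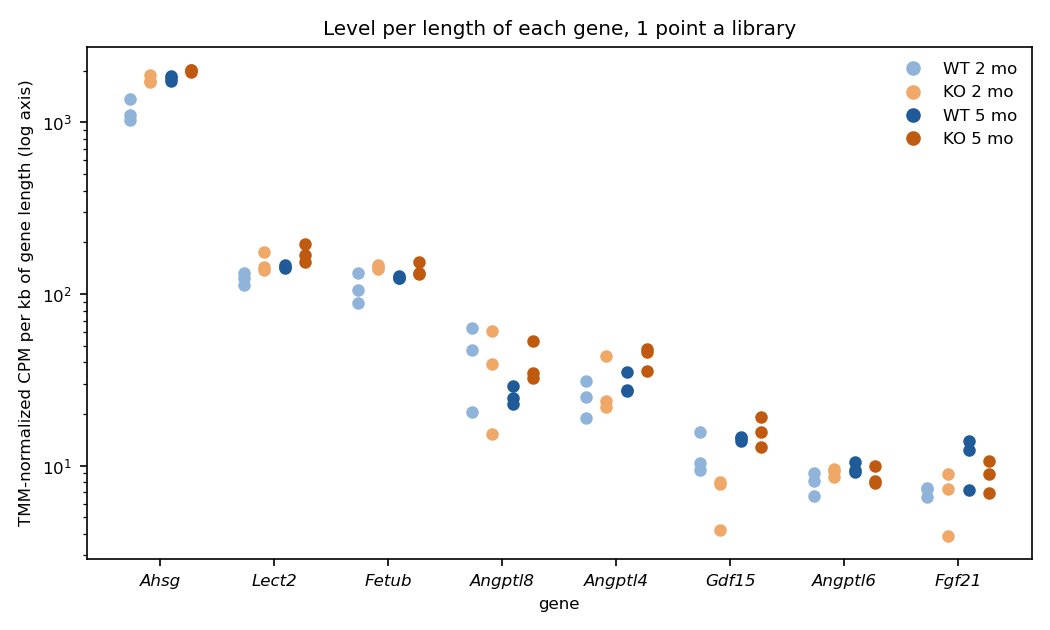
Level of each gene per length (TMM-normalized CPM per kb of gene length, log axis) in the 12 liver libraries, with 1 point for each library and colour for genotype and time. Ahsg lies about an order of magnitude above Lect2 and Fetub, and Gdf15, Angptl6 and Fgf21 lie lowest, between 3.90 and 19.1 CPM per kb.

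Comparison of genotypes asks how these factors respond to the loss of hepatocyte PPARγ during FFD feeding. At 2 months the edgeR quasi-likelihood test with Benjamini-Hochberg adjustment called 1 of the 8 genes, Ahsg, where it called 3.56% of the 14573 genes tested (1.78% higher and 1.78% lower). The libraries of both genotypes did not overlap for 4 of the 8, Gdf15, Fetub, Ahsg and Lect2, against 24.1% of all genes tested. With the thresholds of an unadjusted p under 0.05 and a change of at least 1.3-fold, 3 of the 8 passed, beside 11.0% of all genes. At 5 months 2 of the 8 were called, Angptl4 and Lect2, both higher, where 18.4% of 14138 genes were called (8.90% higher and 9.51% lower). The groups did not overlap for 5 of the 8 at that time, Angptl4, Angptl8, Fetub, Ahsg and Lect2, each higher under the KO label, against 34.9% of all genes, and 2 passed the unadjusted thresholds, beside 17.0%. All 8 genes passed the filter on low counts in every comparison, the lowest count being 65 for Fgf21. The median log2 fold change of the 8 was 0.23 at 2 months and 0.16 at 5 months, beside -0.00 and -0.01 over all genes tested.

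**Figure D2:**
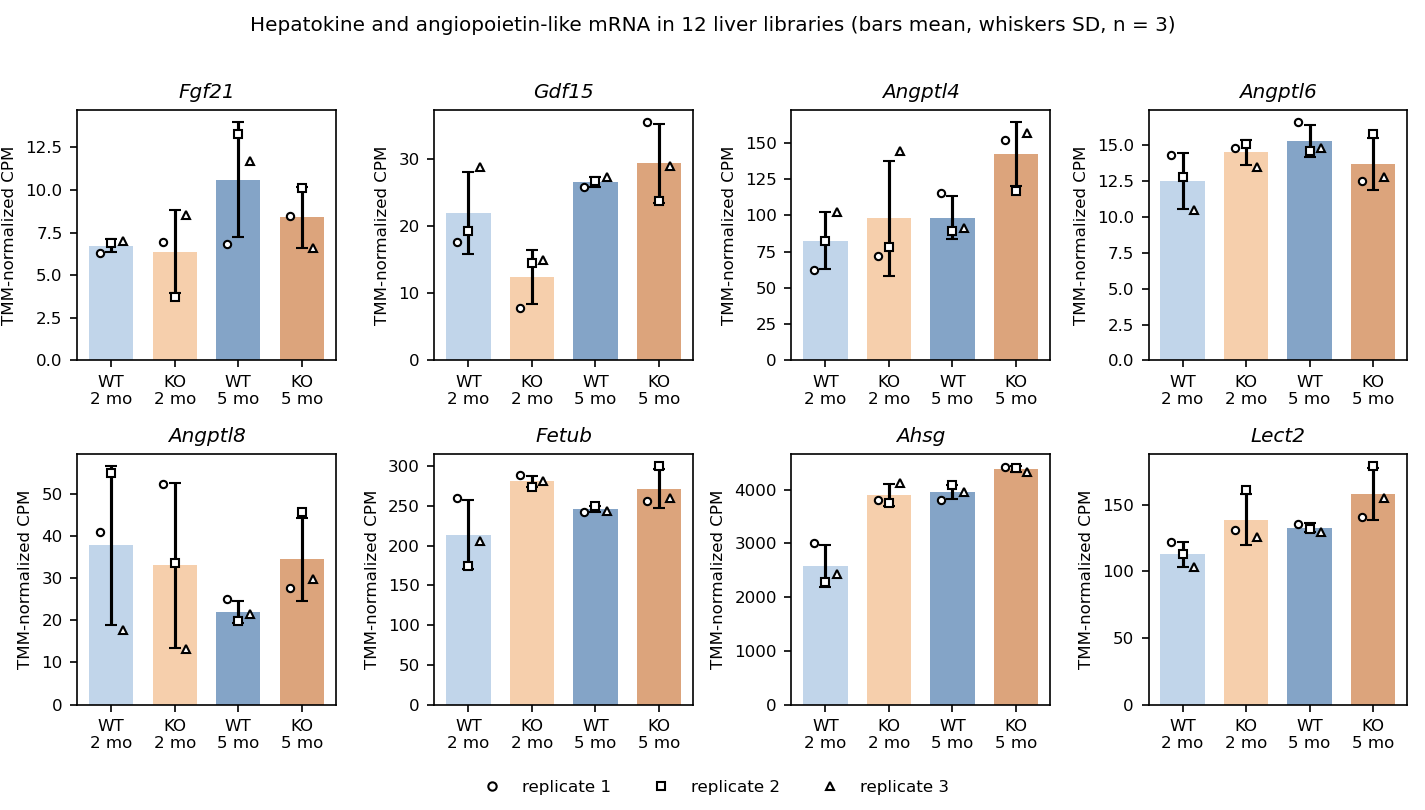
TMM-normalized CPM of the 8 genes in the 12 libraries (bars mean, whiskers SD, n = 3 for each group, symbols for replicate numbers). The libraries labelled PPARγ-KO lie above WT for Ahsg at both times and below WT for Gdf15 at 2 months (7.82 to 14.9 against 17.6 to 28.8 CPM), and Angptl8 at 2 months spreads from 13.1 to 54.9 CPM.

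Fgf21, the fasting and stress hormone of the FGF family, showed no called difference between genotypes. At 2 months it was at 6.28, 6.90 and 7.01 CPM in WT and at 6.94, 3.71 and 8.53 under the KO label. At 5 months the values were 6.82, 13.3 and 11.7 CPM in WT and 8.50, 10.1 and 6.57 under the KO label. The groups overlapped at both times. The log2 fold change was -0.06 at 2 months (95% CI -0.65 to 0.53, adjusted p = 0.934) and -0.32 at 5 months (95% CI -0.91 to 0.27, adjusted p = 0.453). WT replicate 1 at 5 months was the lowest of its group, and without it the log2 fold change at 5 months was -0.56 (adjusted p = 0.0282).

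Of 6 listed genes of FGF receptors and Klotho cofactors, Klb, which encodes β-Klotho, was higher under the KO label at 5 months. Its group means were 24.6 CPM in WT and 40.5 under the KO label (log2 fold change 0.73 ± 0.0968, adjusted p = 2.56e-04). Fgfr3 was also higher under the KO label at 5 months, at 24.0 against 32.8 CPM (0.46 ± 0.0727, adjusted p = 7.91e-04). At 2 months Fgfr4, the main FGF receptor of hepatocytes, was the 1 gene called, at 37.2 against 50.3 CPM (0.43 ± 0.102, adjusted p = 0.0489). Neither Fgfr1 nor Fgfr2 was called at either time, and Kl had too few counts to test. Calls in this list were 1 higher and 0 lower at 2 months (0 to 2 higher over 13 alternatives) and 2 higher and 0 lower at 5 months (2 to 3 higher). Over the 5 genes with a test, the median log2 fold change was 0.13 and then 0.19. Klb differed in its response between the times by 0.58 ± 0.208 on the log2 scale, which was not called (adjusted p = 0.202).

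Gdf15, the stress hormone of the TGF-β superfamily, was lower under the KO label at 2 months in every library but did not pass the main test. Levels were 17.6, 19.3 and 28.8 CPM in WT and 7.82, 14.5 and 14.9 under the KO label, so the highest KO-labelled library lay below the lowest WT library. The log2 fold change was -0.82 ± 0.301 (95% CI -1.55 to -0.08, unadjusted p = 0.0346, adjusted p = 0.220). With the replicate number as a block, the value was -0.84 and the gene was called (adjusted p = 0.0141), as it was by DESeq2 (adjusted p = 0.0211). At 5 months the groups overlapped, at 25.7, 26.6 and 27.2 CPM in WT and 35.4, 23.7 and 28.9 under the KO label, with a log2 fold change of 0.16 (95% CI -0.11 to 0.43, adjusted p = 0.435). The response at 5 months minus that at 2 months was 0.96 ± 0.365 and was not called (adjusted p = 0.252).

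Genes of the integrated stress response, the pathway of ATF4 that induces Fgf21 and Gdf15, moved in both directions. Of 20 listed genes, 18 were tested at 2 months and 1 was called, the transcription factor Atf5, at 239 against 310 CPM (log2 fold change 0.37 ± 0.0756, adjusted p = 0.0290). At 5 months 3 of 19 were higher: the mTORC1 inhibitor Ddit4 (19.6 against 61.0 CPM; 1.65 ± 0.113, adjusted p = 6.6e-06), the mitochondrial serine enzyme Shmt2 (0.38 ± 0.0667, adjusted p = 0.00168) and the transcription factor Cebpb (0.34 ± 0.0791, adjusted p = 0.00970). Another 3 were lower, among them the stress factor Atf3 at 11.2 against 6.59 CPM (-0.76 ± 0.153, adjusted p = 0.00404). The median log2 fold change was 0.02 at 2 months and -0.21 at 5 months. Over the 13 alternatives the calls at 5 months were 2 to 3 higher and 1 to 6 lower.

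Angptl4, an inhibitor of LPL and a PPAR target, was higher under the KO label at 5 months. It was at 115, 89.0 and 90.9 CPM in WT and at 152, 117 and 157 under the KO label, without overlap, and the log2 fold change was 0.54 ± 0.137 (95% CI 0.22 to 0.86, adjusted p = 0.0316). At 2 months the levels were 62.6, 82.6 and 102 CPM in WT and 71.9, 78.1 and 144 under the KO label. The groups overlapped, and the log2 fold change of 0.25 (95% CI -0.65 to 1.15, adjusted p = 0.765) turned to -0.13 without KO replicate 3. The call at 5 months was lost without WT replicate 2 (0.47, adjusted p = 0.102), WT replicate 3 (0.49, adjusted p = 0.112), KO replicate 1 (0.49, adjusted p = 0.0935) or KO replicate 3 (0.46, adjusted p = 0.0866). It was also lost with all 12 libraries in one fit, where the spread at 2 months enters (0.53, adjusted p = 0.296).

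Angptl8, an insulin-responsive gene, varied more between replicates at 2 months than any other of the 8 genes. WT libraries were at 41.0, 54.9 and 17.7 CPM and libraries labelled PPARγ-KO at 52.4, 33.7 and 13.1, a coefficient of variation of 49.7% and 59.4%. Replicate 3 was the lowest in Angptl8 and the highest in Angptl4 in both genotypes. The log2 fold change was -0.20 with a wide interval (95% CI -2.06 to 1.66, adjusted p = 0.917), and it became 0.17 without WT replicate 2 and 0.19 without KO replicate 3. At 5 months Angptl8 was at 25.0, 19.8 and 21.4 CPM in WT and 27.8, 45.8 and 29.9 under the KO label. These groups did not overlap, but the log2 fold change of 0.66 ± 0.215 (95% CI 0.13 to 1.19) missed the threshold (adjusted p = 0.0926). It passed under DESeq2 (adjusted p = 6.32e-04), without a filter (0.00292), without KO replicate 1 (0.80, adjusted p = 0.0316) and without KO replicate 2 (0.40, adjusted p = 0.0246).

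**Figure D3:**
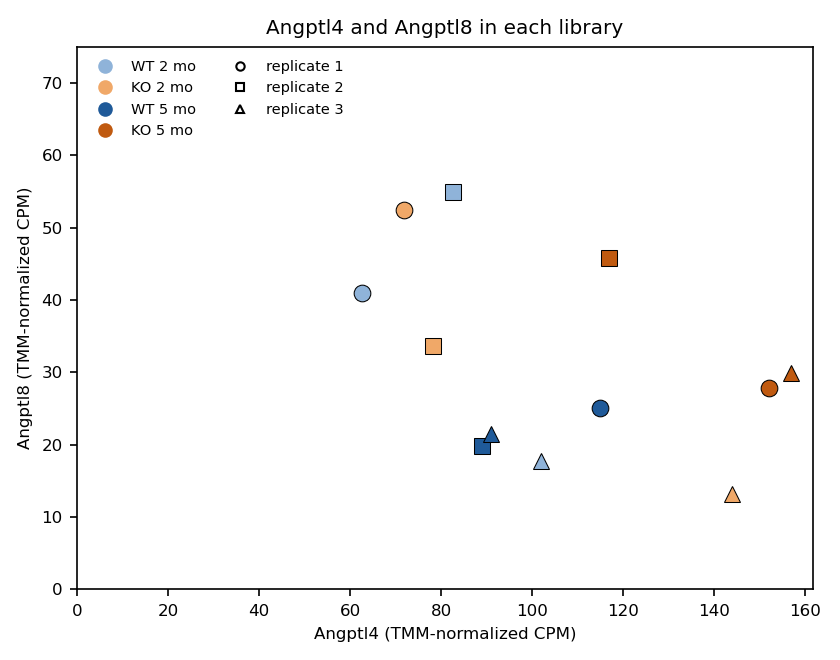
Angptl8 against Angptl4 (both TMM-normalized CPM) in the 12 libraries, coloured by genotype and time, with symbols for replicate numbers. At 2 months replicate 3 of both genotypes (triangles) sits at the lower right, at 17.7 and 13.1 CPM of Angptl8 and 102 and 144 CPM of Angptl4. At 5 months the libraries labelled PPARγ-KO lie above WT on both axes.

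Angptl6 stayed within the spread of its replicates in both comparisons of genotype. It was at 14.3, 12.8 and 10.5 CPM in WT and 14.8, 15.1 and 13.5 under the KO label at 2 months, and at 16.6, 14.6 and 14.8 and then 12.5, 15.8 and 12.8 at 5 months. The groups overlapped at both times, with log2 fold changes of 0.21 (95% CI -0.08 to 0.50, adjusted p = 0.436) and -0.15 (95% CI -0.40 to 0.10, adjusted p = 0.421). In the annotation, 265 of its 1582 exon bases lie opposite exons of A230050P20Rik, which had 1367 to 2257 counts in the 2-month libraries and 419 to 1355 in the 5-month libraries, against 203 to 363 for Angptl6 over all 12. Whether counting used the strand is not given in the sources used here, so reads of the 2 genes may be mixed. Angptl8 lies within Dock6 on the other strand but shares no exon bases with it.

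Around ANGPTL4 and ANGPTL8 stands the LPL system, and Lpl itself was lower under the KO label than in WT at both times. Lpl, the lipase that frees fatty acids from lipoproteins, was at 52.4 CPM in WT and 33.0 under the KO label at 2 months (log2 fold change -0.66 ± 0.141, adjusted p = 0.0415) and at 186 and 73.0 at 5 months (-1.34 ± 0.191, adjusted p = 0.00682). Apoc3, which encodes an inhibitor of LPL, was higher at both times, at 965 against 1263 CPM (0.39 ± 0.0900, adjusted p = 0.0469, or 0.0772 with the replicate block) and at 1333 against 1598 CPM (0.27 ± 0.0858, adjusted p = 0.0433). Furin, a protease that cleaves LPL and several ANGPTL proteins, was higher at 5 months, at 242 against 300 CPM (0.32 ± 0.0718, adjusted p = 0.00749). Of 14 listed genes, 1 was called higher and 1 lower at 2 months (0 to 4 and 0 to 2 over 13 alternatives), and 3 higher and 1 lower at 5 months (0 to 5 and 1 to 2). The medians were 0.10 and 0.07. Leaving out any 1 of 4 libraries at 2 months, WT replicate 2 or 3 or KO replicate 1 or 2, ended the call of Lpl (adjusted p 0.106 to 0.157), as did all 12 libraries in one fit (0.0671), while at 5 months it held under all 13 alternatives. Among the other angiopoietin-like genes Angptl2 was lower at 2 months, at 30.1 against 22.5 CPM (-0.42 ± 0.0950, adjusted p = 0.0435), a call lost without any 1 of the libraries other than WT replicate 1 (adjusted p 0.0869 to 0.160).

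Ahsg, the gene of fetuin-A, was higher under the KO label at 2 months, which made it the 1 gene of the 8 called at that time. It was at 3012, 2275 and 2430 CPM in WT and at 3799, 3747 and 4124 under the KO label, without overlap. The log2 fold change was 0.60 ± 0.118 (95% CI 0.33 to 0.86, adjusted p = 0.0261). With the replicate block it kept the call (adjusted p = 0.0286), and it lost it without WT replicate 2 (0.51, adjusted p = 0.113), WT replicate 3 (0.56, 0.117), KO replicate 1 (0.61, 0.107), KO replicate 2 (0.62, 0.0683) or KO replicate 3 (0.56, 0.0968). At 5 months the values were 3814, 4076 and 3960 CPM in WT and 4412, 4410 and 4323 under the KO label. These groups did not overlap either, but the log2 fold change of 0.16 ± 0.0771 (95% CI -0.01 to 0.33) was not called (adjusted p = 0.182). The response at 5 months was lower than that at 2 months, with a difference of -0.45 ± 0.137 on the log2 scale (unadjusted p = 0.00490, adjusted p = 0.120), and this difference passed the threshold with DESeq2 (0.0321), without a filter (0.00114) and without WT replicate 1 at 2 months (-0.57, adjusted p = 0.00482). Summed hepatocyte markers, most of them Alb, moved in the same direction, from a mean of 62393 to 78518 CPM at 2 months and from 56693 to 77653 CPM at 5 months, although Apoa1 and Cyp2e1 did not rise with them at 5 months.

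Fetub lies next to Ahsg on chromosome 16, 18884 bases away with no annotated gene between them. At 2 months it was at 260, 175 and 206 CPM in WT and 289, 274 and 281 under the KO label, without overlap. The log2 fold change of 0.40 ± 0.129 (95% CI 0.10 to 0.69) was not called (adjusted p = 0.140), but it was with the replicate block (0.41, adjusted p = 0.0487), with all 12 libraries in one fit (adjusted p = 0.0397), without a filter (1.2e-04) and without WT replicate 1 (0.56, adjusted p = 0.00138). WT replicate 1, the library farthest from its group, held the highest WT level of both fetuins. At 5 months Fetub was at 243, 250 and 244 CPM in WT and 256, 300 and 260 under the KO label, and the log2 fold change of 0.16 ± 0.0726 was not called (95% CI 0.00 to 0.32, adjusted p = 0.157). In the annotation, 62 of the 2197 exon bases of Ahsg lie opposite exons of Gm30505, which was not analysed here.

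Lect2 was higher under the KO label at 5 months. The levels were 136, 132 and 130 CPM in WT and 141, 179 and 155 under the KO label, and the log2 fold change was 0.26 ± 0.0817 (95% CI 0.09 to 0.44, adjusted p = 0.0413). At 2 months they were 122, 113 and 103 CPM in WT and 131, 161 and 126 under the KO label, with a log2 fold change of 0.31 ± 0.105 (95% CI 0.07 to 0.54) that was not called (adjusted p = 0.148). The groups did not overlap at either time. The call at 5 months was lost under 8 of 13 alternatives: library size alone (0.19, adjusted p = 0.101), the replicate block (0.0582), all 12 libraries in one fit (0.116) and without WT replicate 1 (0.0647), WT replicate 2 (0.120), WT replicate 3 (0.134), KO replicate 2 (0.16, adjusted p = 0.172) or KO replicate 3 (0.0877).

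Of 12 other genes listed as receptors or binding partners of these factors, 10 were tested, and 5 were called at 5 months. At 2 months 0 of 10 tested were called by edgeR (0 to 1 in each direction over the alternatives), 2 had an unadjusted p under 0.05, and DESeq2 called 0. At 5 months 4 were lower: the myeloid receptors Lilrb4a (5.84 against 2.36 CPM; log2 fold change -1.30 ± 0.316, adjusted p = 0.0157) and Pirb (12.1 against 6.19; -0.95 ± 0.162, adjusted p = 0.00130), the endotoxin receptor Tlr4 (6.58 against 3.39; -0.95 ± 0.168, adjusted p = 0.00166) and the endothelial receptor Tek (-0.33 ± 0.0975, adjusted p = 0.0330). Met, the hepatocyte growth factor receptor and a partner of LECT2, was higher, at 85.0 against 101 CPM (0.26 ± 0.0622, adjusted p = 0.0119). Lilrb4a, Pirb and Tlr4 are genes of myeloid cells, and the macrophage markers were lower with them at 5 months (a mean of 596 against 320 CPM). The difference of response between the times had adjusted p of 0.0957 to 0.994 in the 10 genes, so the times were not shown to differ. Gfral and Ret, which form the GDF15 receptor, had too few counts to test.

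Of 28 other hepatokines, 27 were tested, with 5 called at 2 months and 12 at 5 months. At 2 months 3 were higher. Hamp2, a paralog of the hepcidin gene Hamp, was at 5.42 against 23.0 CPM (log2 fold change 2.09 ± 0.254, adjusted p = 0.00991). Itih3 was at 339 against 471 CPM (0.47 ± 0.109, adjusted p = 0.0445). Hgfac, the activator of hepatocyte growth factor, was at 179 against 244 CPM (0.45 ± 0.0821, adjusted p = 0.0196). Arsa, the gene of the lysosomal enzyme arylsulfatase A, was lower (105 against 65.5; -0.68 ± 0.0756, adjusted p = 0.00245), as was Eda, the ectodysplasin gene (4.35 against 2.01; -1.12 ± 0.235, adjusted p = 0.0315). At 5 months 4 were higher and 8 lower. Hgfac was higher again (115 against 178; 0.64 ± 0.0661, adjusted p = 3.63e-05), with Smoc1 (81.1 against 110; 0.45 ± 0.0728, adjusted p = 9.37e-04) and Serpinb1a (6.06 against 13.9; 1.20 ± 0.305, adjusted p = 0.0383). Among the lower genes whose groups did not overlap, the acute phase proteins Orm2 (106 against 32.0; -1.72 ± 0.196, adjusted p = 0.00281) and Lcn2 (272 against 105; -1.36 ± 0.246, adjusted p = 0.0229) and the IGF carrier Igfbp2 (353 against 135; -1.38 ± 0.108, adjusted p = 2.06e-05) had the largest log2 fold changes. Hamp2, Orm2 and Serpinb1a have near-identical paralogs, with which reads may be shared. Hamp was not called at 2 months, at 162 CPM in WT and 137 under the KO label (-0.24, adjusted p = 0.873). At 5 months the group means of Hamp were 230 CPM in WT and 31.2 under the KO label. Hamp was not among the genes that were both called and without overlap at that time. Over the 27 genes tested, the median log2 fold change was 0.04 at 2 months and -0.20 at 5 months. The difference of response between the times was called lower for 4 of the 27 and higher for 0.

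Genes listed as PPAR-responsive were mostly lower under the KO label at 2 months. Whether they answered to PPARα, the receptor best known for inducing Fgf21 and Angptl4 in liver, or to PPARγ was not tested. Of 20 genes 0 were called higher and 5 lower (0 to 1 and 2 to 10 over 13 alternatives), with a median of -0.38, and at 5 months 1 was higher and 7 lower (1 to 2 and 5 to 9), with a median of -0.07. Vnn1, a pantetheinase, was at 149 against 54.7 CPM at 2 months (log2 fold change -1.45 ± 0.108, adjusted p = 5.8e-04) and at 169 against 61.4 CPM at 5 months (-1.45 ± 0.0849, adjusted p = 9.97e-07). Acaa1b, a peroxisomal thiolase, was lower at both times (-0.89 ± 0.124, adjusted p = 0.00728, and -0.92 ± 0.0917, adjusted p = 2.66e-05), as was the lipid droplet gene Plin2 (-0.73 ± 0.112, adjusted p = 0.0110, and -0.75 ± 0.0675, adjusted p = 1.25e-05), and the fatty acid hydroxylase Cyp4a14 was lower at 5 months (274 against 107 CPM; -1.35 ± 0.0811, adjusted p = 9.97e-07). Ppara itself was higher at 5 months, at 107 against 145 CPM (0.45 ± 0.0755, adjusted p = 0.00125). At 5 months Angptl4 was called in the opposite direction to those 7 genes.

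A further list held genes that respond, in either direction, to ChREBP or to insulin, to which Angptl8 also responds. They were called higher in 4 of 18 cases at 2 months and in 13 of 18 at 5 months. At 2 months these included Khk, which encodes ketohexokinase, and the named genes Pklr, a glycolytic kinase (504 against 770 CPM; log2 fold change 0.61 ± 0.115, adjusted p = 0.0223), and Mlxipl, which encodes ChREBP (0.46 ± 0.0926, adjusted p = 0.0267). At 5 months the lipogenic genes Acly (239 against 699 CPM; 1.56 ± 0.149, adjusted p = 3.63e-04), Elovl6 (179 against 429; 1.27 ± 0.162, adjusted p = 0.00237) and Thrsp (388 against 860; 1.16 ± 0.170, adjusted p = 0.00420) led. The glucose-releasing phosphatase G6pc was the 1 gene lower (532 against 335; -0.66 ± 0.0727, adjusted p = 6.06e-05). Medians were 0.23 and 0.64, and the number called higher ran from 0 to 6 and from 9 to 13 over the alternatives. Over all genes tested, 1.78% were called higher at 2 months and 8.90% at 5 months. The difference of response between the times was called for 0 of these 18 genes, so the times were not shown to differ. Of the 20 results named by rule at 2 months, Pparg included, those of Vnn1, Acaa1b and Arsa were called under all 13 alternatives, and every other was lost without at least 1 library, never WT replicate 1. At 5 months 24 of 45 were called under every alternative. Among the genes of these lists Met, Lilrb4a, Furin, Apoc3, Serpinb1a, Lcn2 and Cebpb lost their call without at least 1 library (adjusted p up to 0.188). With all 12 libraries in one fit the call was lost by Atf3 (0.493), Cebpb (0.281), Serpinb1a (0.103), G6pc (0.0619) and Apoc3 (0.0612).

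**Figure D4:**
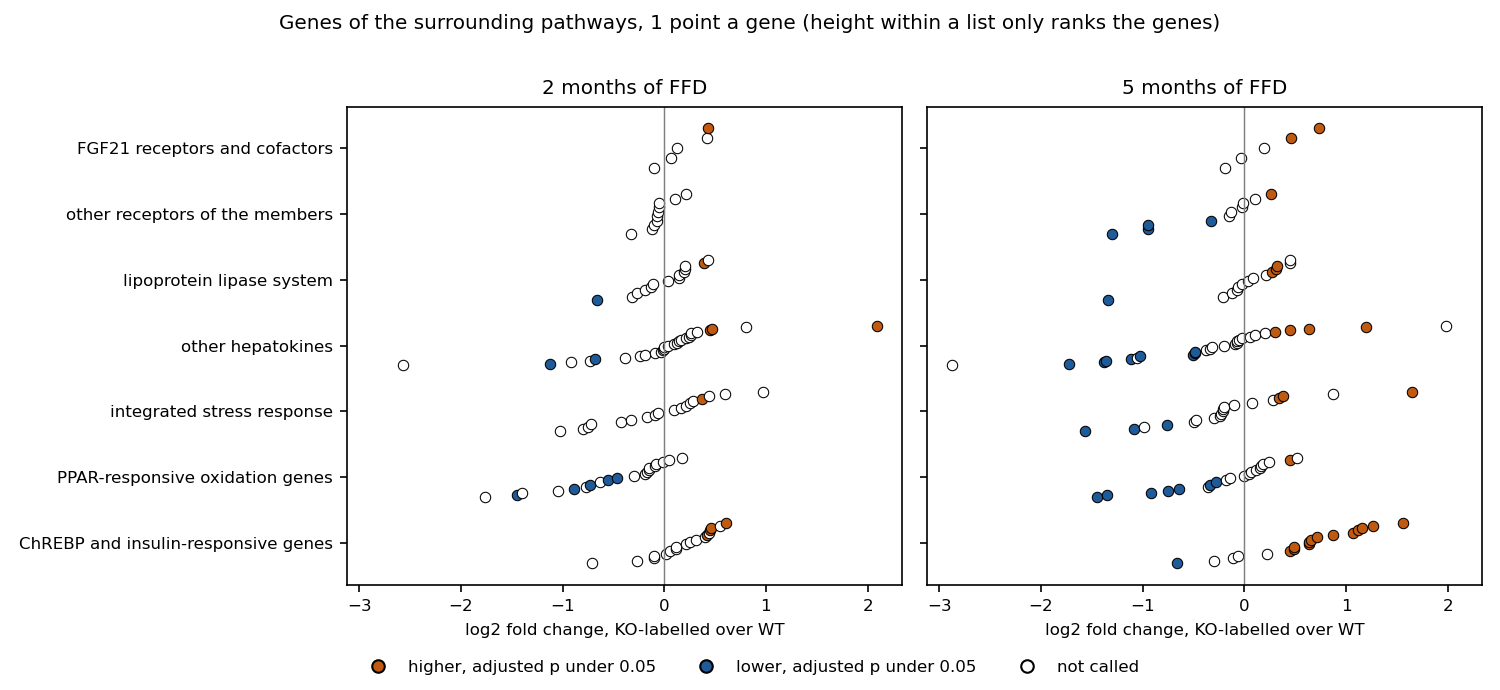
Log2 fold change of libraries labelled PPARγ-KO over WT at 2 months (left) and 5 months (right) for the tested genes of 7 lists around the 8 factors, with 1 point for each gene, filled where edgeR called it. Among the 18 ChREBP and insulin-responsive genes 4 are called higher at 2 months and 13 at 5 months, with 0 called for the difference between the times. In the LPL system Lpl lies far to the left at 5 months, at -1.34.

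The difference of the genotype response between the times was called for 0 of the 8 genes by edgeR, where 1.57% of 15127 genes were called (0.661% higher and 0.912% lower). Gdf15 and Ahsg, 2 of the 8, had an unadjusted p under 0.05 with a difference of at least 1.3-fold, which 10.3% of all genes had, and DESeq2 called 1, Ahsg. For Fgf21, Angptl4, Angptl6, Angptl8, Fetub and Lect2 the differences were -0.28, 0.28, -0.37, 0.85, -0.25 and -0.06 on the log2 scale, with adjusted p of 0.348 to 0.906. So Ahsg, called at 2 months alone, and Angptl4 and Lect2, called at 5 months alone, were not shown to respond differently at the 2 times.

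From 2 to 5 months in WT, 3 of the 8 rose, Fgf21, Ahsg and Lect2, and none fell by the test, where edgeR called 46.4% of 14491 genes (23.8% higher, 22.7% lower). The WT groups did not overlap for 3 of the 8, Angptl6, Ahsg and Lect2, against 56.8% of all genes, and 2 of the 8 passed the unadjusted thresholds, beside 41.1%. In the libraries labelled PPARγ-KO 1 of the 8 rose, Gdf15, where 44.9% of 14478 genes were called (22.7% higher, 22.2% lower), and the groups did not overlap for Gdf15 and Ahsg, 2 of the 8, against 55.6%, and 1 passed the unadjusted thresholds, beside 36.0%. The median log2 change of the 8 was 0.27 in WT and 0.17 under the KO label, beside -0.01 over all genes in each. The comparisons over time share their libraries with those between genotypes. Mice at 5 months were also older, and whether the 2 times were prepared and sequenced together is not given in the sources used here, so time on diet, age and any such batch cannot be told apart.

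**Figure D5:**
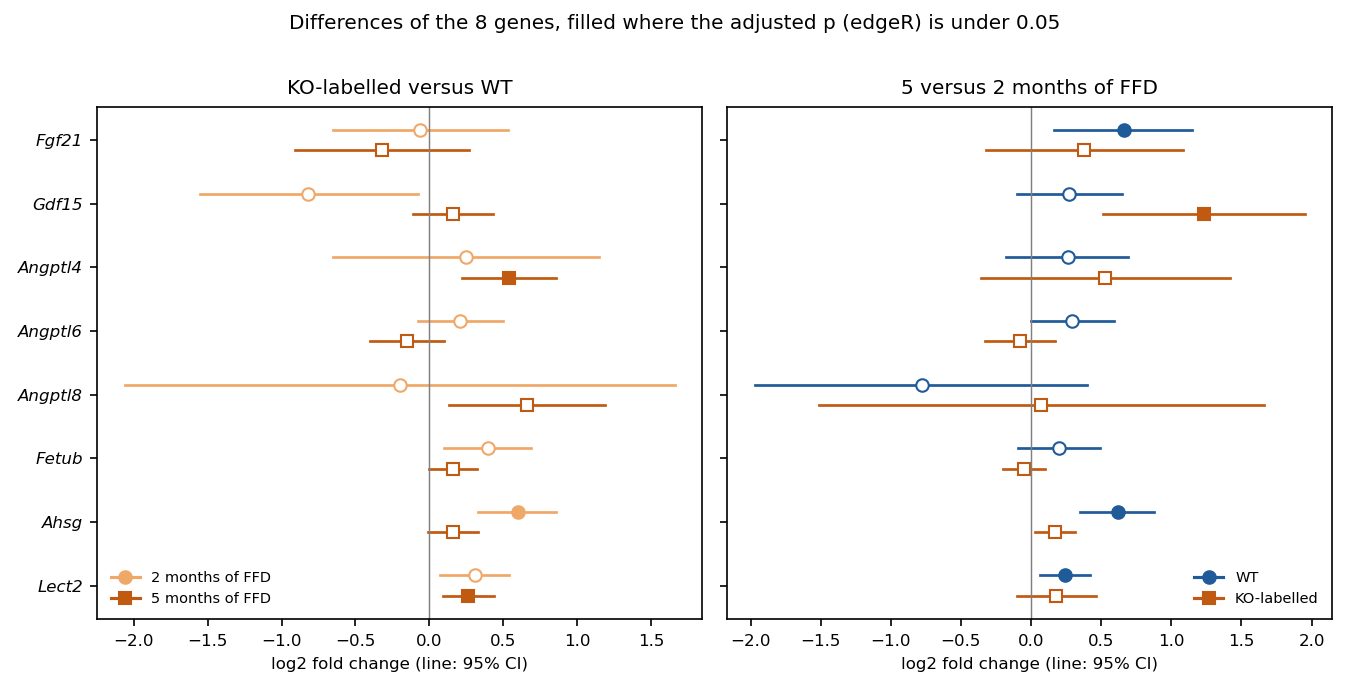
Log2 fold change with its 95% confidence interval (edgeR) for the 8 genes, between genotypes at 2 and 5 months (left) and from 2 to 5 months in each genotype (right), filled where the adjusted p was under 0.05. Ahsg is filled at 2 months on the left and in WT on the right, and the interval of Angptl8 at 2 months runs from -2.06 to 1.66.

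For Ahsg, from 2 to 5 months in WT, the level rose from 2572 ± 389 to 3950 ± 131 CPM (SD, n = 3; log2 fold change 0.62 ± 0.121, adjusted p = 0.00185), called under all 13 alternatives (adjusted p 3.88e-11 to 0.0142). Under the KO label it went from 3890 ± 205 to 4382 ± 50.5 CPM, without overlap but not called (0.17 ± 0.0654, adjusted p = 0.0541). That value passed with DESeq2 (0.0413), without a filter (0.0189) and without KO replicate 3 at 2 months (0.21, adjusted p = 0.0365). The KO-labelled level at 2 months, 3747 to 4124 CPM, spanned that of WT at 5 months, 3814 to 4076 CPM.

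Gdf15 rose under the KO label from 12.4 ± 3.98 to 29.3 ± 5.85 CPM (SD, n = 3), with a log2 fold change of 1.23 ± 0.285 (95% CI 0.51 to 1.95, adjusted p = 0.0190). The 3 libraries at 5 months (23.7 to 35.4 CPM) all lay above those at 2 months (7.82 to 14.9 CPM). This call was lost without a filter (0.0610), with the replicate block (0.0590) and without KO replicate 3 at 5 months (1.25, adjusted p = 0.0570). In WT the level went from 21.9 ± 6.07 to 26.5 ± 0.723 CPM (0.27, 95% CI -0.10 to 0.65, adjusted p = 0.209), and it was called without WT replicate 3 at 2 months (0.52, adjusted p = 0.00335).

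Fgf21 rose in WT from 6.73 ± 0.394 to 10.6 ± 3.38 CPM (log2 fold change 0.66 ± 0.223, adjusted p = 0.0338), although WT replicate 1 at 5 months, at 6.82 CPM, overlapped the 2-month libraries. Its call was lost under 7 of 13 alternatives: library size alone (0.0789), all 12 libraries in one fit (0.0808) and without WT replicate 1 (0.0785), replicate 2 (0.0740) or replicate 3 (0.0764) at 2 months, or WT replicate 2 (0.137) or replicate 3 (0.109) at 5 months. Under the KO label the change was 0.38 (95% CI -0.32 to 1.08, adjusted p = 0.343). Lect2 rose in WT from 113 ± 9.42 to 133 ± 3.18 CPM (0.24 ± 0.0805, adjusted p = 0.0319), also a call lost under 7 of 13 alternatives, namely library size alone (0.0857), all 12 libraries in one fit (0.0611) and without WT replicate 2 (0.0709) or replicate 3 (0.133) at 2 months, or any 1 WT library at 5 months (0.0661 to 0.0792). Under the KO label Lect2 changed by 0.18 (95% CI -0.10 to 0.46, adjusted p = 0.256), and it was called without KO replicate 2 at 2 months (0.30, adjusted p = 0.0316).

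The ANGPTL genes were not called over time in either genotype. Angptl4 changed by 0.26 in WT (95% CI -0.18 to 0.69, adjusted p = 0.293) and by 0.53 under the KO label (95% CI -0.36 to 1.42, adjusted p = 0.268), and replicate 3 at 2 months, the highest of its group in both genotypes, decided both values: without it they were 0.43 (adjusted p = 0.0497) and 0.92 (adjusted p = 0.00178). Angptl8 went from 37.8 ± 18.8 to 22.0 ± 2.66 CPM in WT (-0.78, 95% CI -1.97 to 0.40, adjusted p = 0.226). Without WT replicate 3 at 2 months, its lowest library, the value was -1.13 (adjusted p = 4.42e-04). Under the KO label Angptl8 was at 33.1 ± 19.6 and 34.5 ± 9.81 CPM (0.07, 95% CI -1.51 to 1.66, adjusted p = 0.933), a value that turned to -0.32 without KO replicate 3 at 2 months and to -0.18 without KO replicate 2 at 5 months. Angptl6 changed by 0.29 in WT (95% CI 0.00 to 0.59, adjusted p = 0.0925; 0.40 and 0.0220 without WT replicate 1 at 2 months) and by -0.08 under the KO label (95% CI -0.33 to 0.17, adjusted p = 0.605). Fetub changed by 0.20 (95% CI -0.09 to 0.49, adjusted p = 0.233; 0.37 and 0.00343 without WT replicate 1 at 2 months) and by -0.05 (95% CI -0.20 to 0.10, adjusted p = 0.586).

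The genes most like each of the 8 over the 12 libraries were found by Pearson's r of log2 CPM among 15127 genes, as a description: the 12 points fall into 4 groups, share any difference of depth or cell makeup, and were searched for the highest value. Ahsg was closest to AI182371 (r = 0.984) and to Cyp2c70 (0.971), which encodes a bile acid hydroxylase of mouse liver. Fetub was closest to Pon1, the gene of paraoxonase of HDL (0.940), and to Naa35 (0.934), and Lect2 to Cyp2c68 (0.942) and Fbxl15 (0.934). For the other genes the closest were Tmem86a (0.902) and Aoah (0.884) for Fgf21, Gm17767 (0.931) and Wtip (0.920) for Gdf15, Cpeb2 (0.928) and Mknk2 (0.899) for Angptl4, 2610301B20Rik (0.892) and Tex261 (0.832) for Angptl6, and Wdr6 (0.939) and Plekhh3 (0.893) for Angptl8. None of the 8 was among the closest 2 genes of another.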

How the data were processed

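Liver RNA of 12 libraries was analysed from the tables of raw read counts per gene that the authors deposited, which were not normalized and also held gene coordinates and lengths. Total RNA was extracted with TRIzol and sequenced and aligned to mm10 by Novogene. The study's methods name STAR as the aligner, and the submitters' processing notes name HISAT2. The counting program, the annotation release and the use of strand are not given in the sources used here. Gene lengths are those in the deposited files. The 8 genes and the gene lists were chosen with earlier results of these data known.

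From the counts, libraries were scaled by TMM, genes were filtered by filterByExpr, and groups were compared with the two-sided robust quasi-likelihood F-test of edgeR 4.0.16 (R 4.3.3), each pair of groups in its own fit of 6 libraries and the difference of responses in a fit of all 12. P-values were adjusted over every gene tested by the Benjamini-Hochberg method, and genes with an adjusted p under 0.05 were called. The method was tested on simulated data. Log2 fold changes carry the standard error and 95% confidence interval of the fit, and displayed CPM use TMM factors over all 12 libraries (0.949 to 1.09). Whether replicates came from separate mice is not stated per library, so p-values measure the spread between these libraries, and all errors include counting error at 16367775 to 27452284 counts per library.

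From the lists, up to 3 called genes in each direction without overlap were named per genotype comparison, with the largest log2 fold changes, and for each of the 8 the 2 genes with the highest correlation (pseudocount 0.5 CPM). Genes named beyond this rule (Tek, Khk, Fgfr1 and Fgfr2 among them) were chosen after their values were seen. Some listed genes count in their lists but are not reported here by name. Groups do not overlap when the lowest value of one exceeds the highest of the other.

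Whether replicate numbers in the labels pair libraries was checked on the 5000 genes of highest abundance. At 2 months same-numbered libraries of both genotypes correlated at 0.220, 0.324 and 0.140 once group means were removed (other pairs -0.274 to 0.114), so the blocked fit is given there where it changes a call. At 5 months (-0.0779, -0.0603 and -0.179) and over time in each genotype the numbers did not pair the libraries.

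Alternatives were DESeq2 1.42.0, its size factors, no filter or a minimum of 10 counts in every library, library size alone, the replicate block, all 12 libraries in one fit, unadjusted p under 0.05 with a 1.3-fold change, and each library left out. Sequences are from RefSeq (GRCm38.p6). Overlaps of genes are from GENCODE.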

Additional observations from a re-analysis of the deposited data

How the results depend on the processing

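Over the alternatives for the 8 genes in 5 comparisons, 488 of 560 log2 fold changes kept direction and side of the threshold, 35 lost and 28 gained a call, and 9 turned direction, none of them a called value. Those that turned and are not given above were Fgf21 at 2 months (-0.33 to 0.20, the highest without KO replicate 2) and the Lect2 difference of responses (-0.16 to 0.07, with 0.00, 0.07 and 0.02 without WT replicate 3 or KO replicate 2 at 2 months or KO replicate 1 at 5 months). The others were Angptl4 (-0.13 to 0.43) and Angptl8 (-0.71 to 0.19, with 0.17 also positive) at 2 months and Angptl8 over time under the KO label (-0.32 to 0.58, with -0.18 also negative). The number of the 8 called at 2 months, 1, became 2 with DESeq2 and with all 12 libraries in one fit, 3 without a filter and 3 at an unadjusted p under 0.05 with 1.3-fold, and 0 to 2 when a library was left out. At 5 months, 2 became 3 with DESeq2 and without a filter. The number was 1 with library size alone, 0 with all 12 libraries and 0 to 2 with a library left out. From 2 to 5 months in WT, 3 became 1 with library size alone or all 12 libraries, 5 without a filter and 1 to 4 with a library left out, and under the KO label 1 became 2 with DESeq2 and without a filter, and 0 to 3 with a library left out. For the difference of responses, 0 became 1 with DESeq2 and without a filter, 2 at the unadjusted threshold, and 0 to 1 with a library left out.

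With the replicate number as a block, the number of the 8 called was 3 at 2 months, 1 at 5 months and 0 over time under the KO label, and the blocked fit changed no other call than those of Gdf15 and Fetub at 2 months, Lect2 at 5 months and Gdf15 over time, among the 8. Outside 2 months the libraries share only a number. At 2 months the block raised the genes called from 519 to 817.

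Over all genes, 519 called at 2 months became 988 with DESeq2, 1562 without a filter, 1153 with all 12 libraries, 1609 at the unadjusted threshold, and 117 to 1577 with a library left out, the highest without WT replicate 1. At 5 months, 2602 became 1601 without WT replicate 2 and 1593 without WT replicate 3. For the difference of responses, 238 became 594, 793 and 1563 with DESeq2, without a filter and at the unadjusted threshold, and 83 to 567 with a library left out. Library size alone, in place of TMM, moved the split of higher and lower calls from 259 and 260 to 171 and 349 at 2 months, from 1258 and 1344 to 889 and 1894 at 5 months, from 3442 and 3283 to 2745 and 3872 over time in WT, and from 3287 and 3215 to 2741 and 3725 under the KO label. The median over all genes moved by under 0.1 on the log2 scale with that scaling, to -0.08, -0.07, -0.09 and -0.07 in these 4 comparisons.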
